A study of Mus musculus with 108 samples.

Results

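The 10 genes described here encode glutathione S-transferases of the mouse liver: Gsta1, Gsta2, Gsta3 and Gsta4 of the alpha class, Gstm1, Gstm2, Gstm3 and Gstm4 of the mu class, Gstp1 of the pi class and Gstt1 of the theta class. They were found by symbol in each of the 3 deposited expression tables and are 10 of 25125 gene symbols. Where a symbol had several transcripts (3 for Gsta3, 2 for Gstm4 and 2 for Gstt1), the one with the highest mean was taken. A gene was tested where its mean level in a table was at least 10, a rule that all 10 genes met in the wild-type table and in the Esrrg LKO table. In the table with the Errg-Cre libraries 9 met it, and Gsta1, with a mean of 2.68, was not tested.

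RNA was sequenced from livers of male mice in 108 libraries, in 6 sets of 18, with 3 replicates at each of ZT2, 6, 10, 14, 18 and 22 (zeitgeber time, in hours from the start of the light phase). The wild-type sets were 129S1/SvImJ mice (129) on the high fat and sucrose diet D12492i (HFD), 129 mice on normal chow, C57BL/6J mice (B6) on HFD and B6 mice on normal chow. The other sets were both on HFD: Errg-Cre mice of the 129 strain, and Esrrg LKO mice, which are B6 by title although their strain is labelled B6S1/SvImJ. The Esrrg LKO titles also read diet-induced obesity. The columns used for that set are headed HF.ErrgCre and were matched to it through the sample descriptions. The study's design text calls the Esrrg knockout hepatocyte-specific, while the labels do not say what drives Cre, give no age or time on the diet, and do not say whether each replicate was its own animal. The p-values therefore measure only how far these samples spread. Control libraries for the knockouts were not used here, so no effect of genotype was tested. Esrrg itself, the gene of the orphan nuclear receptor ERR gamma, was read at 8.23 to 62.0 in the Errg-Cre libraries and at 7.64 to 39.4 in the Esrrg LKO libraries. With no control libraries used, the loss of the gene was not checked.

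Glutathione S-transferases join the tripeptide glutathione to electrophiles such as lipid peroxidation products, drugs and their reactive metabolites. The conjugates leave the hepatocyte through ABC transporters and are trimmed to mercapturates. The alpha and mu classes are among the abundant soluble proteins of hepatocytes, and many of their genes are induced through the oxidant sensor NRF2, which binds antioxidant response elements, and through the xenobiotic receptors CAR and PXR.

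The genes lie in clusters and alone, with coordinates in mm10 as deposited. Gsta4 (chr9:78191966-78209349), Gsta1 (chr9:78230669-78242683) and Gsta2 (chr9:78331020-78347145) lie close together, as do Gstm3 (chr3:107963696-107969174), Gstm2 (chr3:107981702-107986420), Gstm1 (chr3:108012250-108017973) and Gstm4 (chr3:108040408-108044859). Gsta3 (chr1:21240585-21265575), Gstp1 (chr19:4035411-4037912) and Gstt1 (chr10:75783813-75798584) stand apart from both clusters. A promoter sequence from RefSeq (GRCm38.p6, 250 bases before the start and 50 after) was matched for 9 of the 10 genes, all but Gsta4. A single form of the core of the antioxidant response element, TGACNNNGC, was searched on both strands, with no other form or motif beside it. This form was found in 1 of the 9, that of Gsta3, beginning 121 bases before the start on the sense strand. Of 32851 mouse promoters of this length 12.4% hold it. A promoter without this form may hold another form of the element, which was not searched. The promoters of Gstm3 and Gsta2 are shown because these genes had the clearest separation by diet, and that of Gsta3 because its diet effects were among the smallest and it holds the motif, in capitals. They are chr3:107969125-107969424 on the minus strand, chr9:78347096-78347395 on the minus strand and chr1:21240335-21240634 on the plus strand.
Gstm3: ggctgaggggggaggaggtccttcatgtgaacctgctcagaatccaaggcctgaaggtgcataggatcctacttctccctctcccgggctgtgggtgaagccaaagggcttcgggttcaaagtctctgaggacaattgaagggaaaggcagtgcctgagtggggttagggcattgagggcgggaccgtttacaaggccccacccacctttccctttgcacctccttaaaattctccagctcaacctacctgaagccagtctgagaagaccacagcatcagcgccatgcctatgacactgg
Gsta2: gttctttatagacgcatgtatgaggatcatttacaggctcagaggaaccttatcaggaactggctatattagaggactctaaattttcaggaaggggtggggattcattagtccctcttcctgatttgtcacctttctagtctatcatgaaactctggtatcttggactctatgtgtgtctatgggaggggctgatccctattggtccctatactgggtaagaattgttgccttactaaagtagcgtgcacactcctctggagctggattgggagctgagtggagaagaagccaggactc
Gsta3: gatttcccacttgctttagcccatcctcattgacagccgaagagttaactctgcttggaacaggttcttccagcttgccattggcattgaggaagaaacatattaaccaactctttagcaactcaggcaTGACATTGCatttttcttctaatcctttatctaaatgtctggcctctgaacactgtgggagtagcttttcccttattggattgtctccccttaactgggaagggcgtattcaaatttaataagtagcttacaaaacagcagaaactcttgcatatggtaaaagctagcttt

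The values are read numbers per transcript after quantile normalisation, which gives every library of a given table a common total (10837743 in the wild-type table). The sequencing depth is therefore unknown, and counting error cannot be given. All libraries of a table also share the same sorted values, so the highest levels move in steps of rank. For Gsta3, 11843 was both the median in 129 HFD and the lowest value at ZT2 in B6 HFD. Reads of near-identical copies cannot be told apart with certainty. Of the 50-base windows of the GENCODE transcript, 89.7% for Gsta1 also occur in transcripts of other genes, most of them in Gm3776, against 64.2% for Gsta2 (with Gsta1 above all) and 62.3% for Gstp1 (with Gstp2). The share was 28.8% for Gstm3, 23.1% for Gstm1, 9.36% for Gstm2 and 0 for Gsta3, Gsta4, Gstm4 and Gstt1. The levels of Gsta1, Gsta2 and Gstp1 are therefore uncertain in how reads were split between copies. The mm10 reference is a C57BL/6J genome, and its part in differences between the strains was not tested.

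A single library, B6 HFD ZT22 replicate 3, held the lowest value of its set for 8 of the 10 genes. Its readings were 0.71 for Gsta2, 12.4 for Gsta4, 393 for Gstm1, 33.2 for Gstm2, 1.85 for Gstm3 and 81.1 for Gstt1. The other replicates at that time held 40.5 and 10.7 for Gsta2, and 1361 and 880 for Gstt1. The acute-phase gene Saa1 was at 110328 in that library against a median of 489 in the set, and Lcn2 at 10880 against 44.6, and their part in the low readings was not tested. The 3 libraries with the largest shares of tested genes under a value of 1 were others: 6.95% for 129 chow ZT22 replicate 3, 3.25% for B6 HFD ZT6 replicate 1 and 14.8% for B6 chow ZT14 replicate 3. The non-coding RNA gene Mir6236 varied widely, with a median of 1104 in 129 HFD libraries against 2570 in 129 chow libraries, and of 8292 in B6 HFD libraries against 223 in B6 chow libraries. Calls that are gained or lost without these 4 libraries, an omission chosen after seeing the data, or with the level of Mir6236 as a covariate, are given beside the results of the 10 genes. The cell type markers and other genes named below were not read under these settings.

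Per kilobase of transcript, Gsta3 had the highest mean level of the 10 genes in all 6 sets and Gsta1 the lowest. In 129 HFD livers Gsta3 averaged 7580 ± 1718 per kilobase (SD, n = 18), followed by Gstm1 at 2523 ± 411, Gstp1 at 2335 ± 724 and Gstt1 at 678 ± 110. The other 6 lay between 5.92 and 212 per kilobase there. In 129 chow livers Gsta3 (6437 ± 1141), Gstm1 (5876 ± 1725) and Gstp1 (5116 ± 2525 per kilobase) were neighbours in the order that differed by less than the larger SD. Levels per kilobase use the deposited transcript length, which is 1505 bases for Gsta3, while its matched GENCODE transcript has 742. With the shorter length Gsta3 and the alpha sum would stand higher. In B6 HFD livers Gsta3 averaged 7838 ± 1934 per kilobase, and in B6 chow livers 9245 ± 1551 per kilobase, ahead of Gstm1 (5691 ± 2144) and Gstp1 (3585 ± 1850), which did not differ beyond their spread.

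Summed by class, the mu transcripts were at 2915 ± 493 per kilobase in 129 HFD livers against 6921 ± 1900 in 129 chow livers (mean ± SD, n = 18 each). In B6 HFD livers the mu sum was 2214 ± 956 per kilobase, against 6630 ± 2413 in B6 chow livers. The pi class, Gstp1 alone, was at 2335 ± 724 against 5116 ± 2525 per kilobase in 129 and at 2011 ± 561 against 3585 ± 1850 in B6, HFD against chow. The alpha sum, which is nearly all Gsta3, was at 7886 ± 1728 per kilobase in 129 HFD livers against 7081 ± 1187 in 129 chow livers, and at 8167 ± 2004 in B6 HFD livers against 10037 ± 1599 in B6 chow livers. The sum of all 10 was 13815 ± 1890 per kilobase in 129 HFD livers, against 19707 ± 3656 in 129 chow livers. It was 13492 ± 2991 in B6 HFD livers, against 20742 ± 4616 in B6 chow livers. No test was made on the sums.

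**Figure D1:**
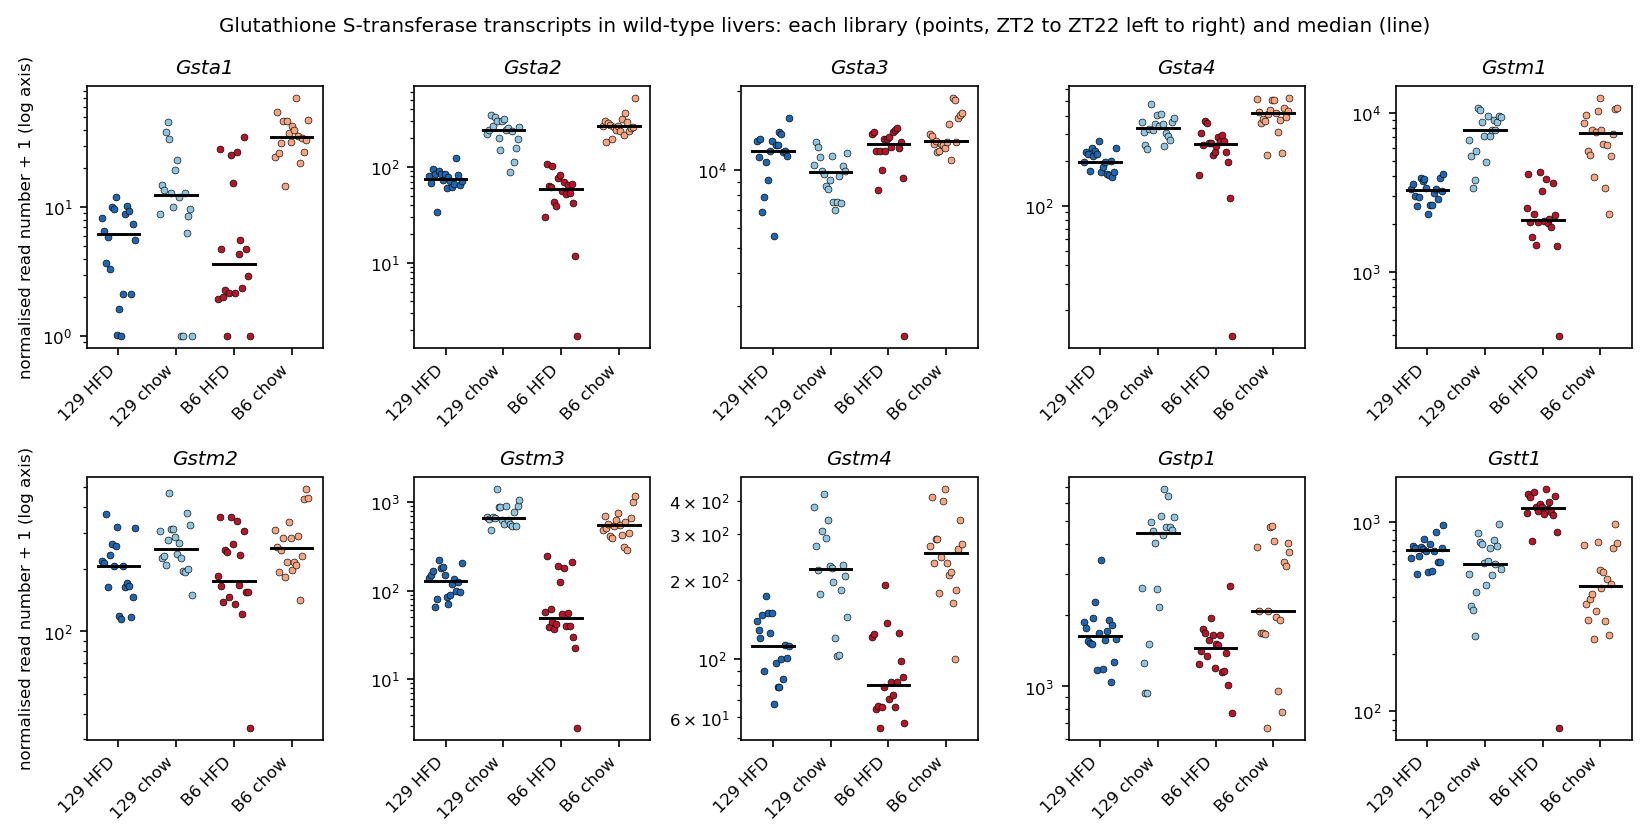
Quantile-normalised read number plus 1 (log axis) of the 10 glutathione S-transferase genes in each wild-type library, with points of a set running from ZT2 to ZT22 and a line at the median of 18 libraries. The Gstm3 libraries of HFD and chow livers do not overlap in either strain, and 1 B6 HFD library lies far below the others in most panels.

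The comparison of HFD with chow asks how the diet moves these genes in each strain. Gstm3 and Gsta2 fell in both strains, Gstm1, Gstm4, Gsta4 and Gstp1 fell in both by less, and Gstt1 was the 1 gene that rose, in B6. Gsta1, Gsta3 and Gstm2 were called as lower in B6 and were not called in 129. The B6 effect of Gsta1 (−2.87) was larger than that of Gsta2 (−2.58). In 129, 6 of the 10 genes were called, all 6 lower on HFD and 0 higher, where 7.45% of the 11287 genes tested were lower and 10.9% higher. In B6 all 10 were called, 9 lower and 1 higher, where 32.7% of all genes were lower and 27.5% higher. Effects are log2(value + 1) differences, HFD minus chow, averaged over the 6 times, with the standard error and the Benjamini-Hochberg adjusted p of limma over all genes tested, called under 0.05. The median effect of the 10 genes was −0.95 in 129 and −1.22 in B6, beside 0.04 and −0.06 for all genes tested.

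Of the mu class, whose enzymes conjugate aryl and epoxide substrates, Gstm3 had the largest change. Its 129 HFD libraries held 64.5, 130 and 221 reads (lowest, median and highest of 18), against 492, 668 and 1399 in 129 chow, so that every HFD library was below every chow library. B6 livers held 1.85, 48.7 and 250 on HFD, against 287, 548 and 1172 on chow, again without overlap. The effect was −2.54 ± 0.23 in 129 (adjusted p = 2.98e-12) and −3.31 ± 0.23 in B6 (adjusted p = 5.63e-17), lower at all 6 times in both strains. Complete separation with all 18 HFD libraries lower was seen for 1 of the 10 genes in 129, where 0.0886% of all genes had it, and for 2 in B6, Gstm3 and Gsta2, where 0.425% had it. Complete separation upward was seen for none of the 10 in either strain (background 0.115% in 129 and 0.31% in B6).

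Gstm1, the most abundant mu transcript, was at 2304, 3250 and 4129 in 129 HFD livers, against 3341, 7828 and 10739 in 129 chow livers. B6 livers held 393, 2120 and 4264 on HFD, against 2295, 7483 and 12408 on chow. The ranges overlap, and 11 of the 18 HFD libraries in each strain lay below every chow library. The effect was −1.17 ± 0.16 in 129 (adjusted p = 1.27e-07) and −1.64 ± 0.16 in B6 (adjusted p = 2.31e-12). Gstm4 was at 66.6, 112 and 173 in 129 HFD livers, against 102, 220 and 427 in 129 chow livers, and at 53.9, 79.0 and 191 in B6 HFD livers, against 99.1, 254 and 443 in B6 chow livers. It fell by 0.95 ± 0.13 in 129 (adjusted p = 7.95e-08) and by 1.53 ± 0.13 in B6 (adjusted p = 1.28e-14), at all 6 times in both. Gstm2 moved less than the other mu genes: its medians were 206 on HFD against 251 on chow in 129 and 175 against 252 in B6. Its effect was −0.38 ± 0.17 in 129, which was not called (adjusted p = 0.108), and −0.49 ± 0.17 in B6 (adjusted p = 0.00907), a call lost without the 4 libraries that stand apart (−0.33, adjusted p = 0.0538) and with the Mir6236 covariate (−0.76, adjusted p = 0.123). In 129 Gstm2 was called without the 4 libraries (−0.42, adjusted p = 0.0260), after removal of the GC and length trends (−0.47, adjusted p = 0.0189) and when the 129 libraries were fitted alone (−0.38, adjusted p = 0.0377).

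Among the alpha genes, whose enzymes act on lipid hydroperoxides and, for GSTA4, on the aldehyde 4-hydroxynonenal, Gsta2 had the largest effect in 129 and Gsta1 in B6. Gsta2 was at 32.9, 74.3 and 123 in 129 HFD livers, against 86.5, 240 and 343 in 129 chow livers, where 15 of 18 HFD libraries lay below every chow library. B6 livers held 0.71, 58.1 and 105 on HFD, against 179, 262 and 522 on chow, without overlap. The fall was 1.58 ± 0.21 in log2 in 129 (adjusted p = 4.84e-08) and 2.58 ± 0.21 in B6 (adjusted p = 4.83e-15). Gsta4 was at 154, 196 and 272 on HFD against 237, 332 and 475 on chow in 129, and at 12.4, 257 and 368 on HFD against 216, 413 and 525 on chow in B6. It fell by 0.72 ± 0.16 in 129 (adjusted p = 0.000724) and by 0.91 ± 0.16 in B6 (adjusted p = 3.69e-06).

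Gsta1 was the least abundant of the genes, listed at 0 in some libraries of 3 wild-type sets. It was at 0, 5.20 and 11 in 129 HFD livers, against 0, 11.5 and 44.98 in 129 chow livers, with an effect of −1.04 ± 0.40 that was not called (adjusted p = 0.0633). It was called in 129 when any 1 of 4 libraries was left out: 129 HFD ZT10 replicate 2, or 129 chow ZT14 replicate 3, ZT18 replicate 1 or ZT22 replicate 3, with effects from −1.27 to −1.15. It was also called there without the 4 libraries that stand apart (−1.22, adjusted p = 0.0176), with the Mir6236 covariate (−1.18, adjusted p = 0.0315), after removal of the GC and length trends (−1.11, adjusted p = 0.0383) and with a pseudocount of 5 (−0.74, adjusted p = 0.0189). In B6 it was at 0, 2.63 and 34.3 on HFD, against 13.6, 34.1 and 69.4 on chow, and 13 of 18 HFD libraries lay below every chow library. The B6 effect was −2.87 ± 0.40 (adjusted p = 3.90e-08), and −2.09 with the Mir6236 covariate, where it was not called (adjusted p = 0.0747). Gsta3, the most abundant of the 10, was at 5589, 11843 and 15807 in 129 HFD livers, against 6982, 9785 and 12764 in 129 chow livers, with an effect of 0.22 ± 0.12 that was not called (adjusted p = 0.205). This effect was called without B6 HFD ZT22 replicate 3 alone, which enters the shared estimate of the spread, and without the 4 libraries (0.23, adjusted p = 0.0321). In B6 it was at 2299, 12501 and 14434 on HFD, against 10880, 12841 and 18843 on chow. The B6 effect of −0.30 ± 0.12 (adjusted p = 0.0213) was not called without B6 HFD ZT22 replicate 3 (−0.18, adjusted p = 0.0537), after removal of the GC and length trends (−0.23, adjusted p = 0.0717), with median-of-ratios scaling (−0.23, adjusted p = 0.0677), or with the Mir6236 covariate (−0.02, adjusted p = 0.976). Nor was it called when the B6 libraries were fitted alone (−0.30, adjusted p = 0.0560).

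Gstp1, which conjugates a wide range of electrophiles and is used as a marker of preneoplastic liver cells in rats, was at 1047, 1633 and 3444 in 129 HFD livers, against 933, 4468 and 6831 in 129 chow livers. In B6 it was at 772, 1457 and 2663 on HFD, against 668, 2089 and 4796 on chow. The ranges overlapped in both strains, and no HFD library lay below all chow libraries. It fell by 0.95 ± 0.19 in 129 (adjusted p = 0.000251) and by 0.66 ± 0.19 in B6 (adjusted p = 0.00296). Gstt1, which acts on small halogenated compounds, was at 526, 707 and 957 in 129 HFD livers, against 249, 601 and 974 in 129 chow livers, and its effect there was not called (0.27 ± 0.19, adjusted p = 0.360). In B6 it was at 81.1, 1177 and 1478 on HFD, against 240, 458 and 972 on chow, and 15 of 18 HFD libraries lay above every chow library and 1 lay below all of them. It rose by 1.13 ± 0.19 in B6 (adjusted p = 1.19e-06), at 5 of 6 times. At ZT22 the B6 difference was −0.82, and the effect with the Mir6236 covariate was 0.43 (adjusted p = 0.513).

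**Figure D2:**
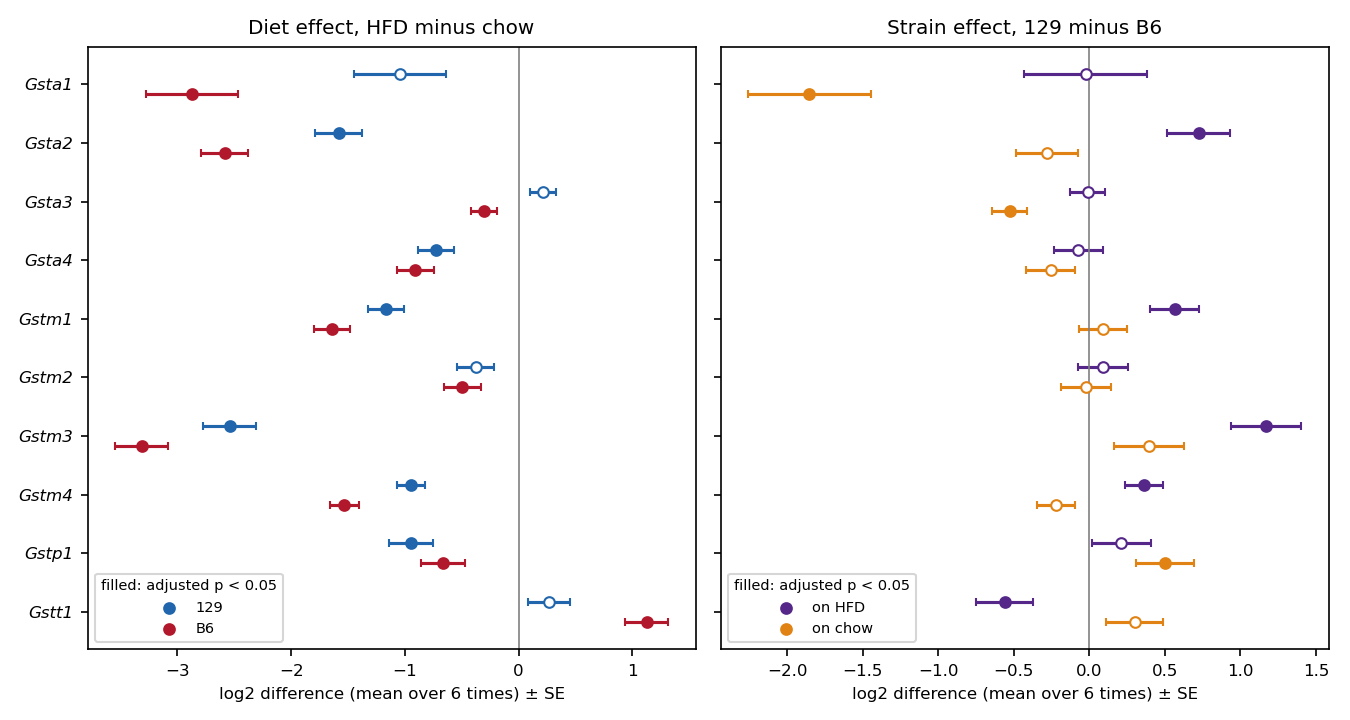
Log2 differences averaged over the 6 times, with standard errors, for the diet (left, HFD minus chow, in 129 and B6) and for the strain (right, 129 minus B6, on HFD and on chow); filled points passed an adjusted p of 0.05. Gstm3 lies farthest to the left for diet in both strains, from −2.54 in 129 to −3.31 in B6, and Gstt1 in B6 is the 1 filled point to the right of 0 in the left panel.

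Without the 4 libraries that stand apart, Gsta3 (−0.18, adjusted p = 0.0612) and Gstm2 were no longer called for diet in B6, and the other 8 were, while Gsta1, Gsta3 and Gstm2 were called in 129 beside the 6. With the Mir6236 covariate 6 of the 10 genes were called for diet in B6, all lower (Gsta2, Gsta4, Gstm1, Gstm3, Gstm4 and Gstp1), among 564 genes in all.

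Some cell type markers were called for diet too. Of all genes tested 10.9% rose and 7.45% fell in 129, and 27.5% rose and 32.7% fell in B6. Several of the marker counts below lie near these shares. Marker counts were not taken without the 4 libraries that stand apart or with the Mir6236 covariate. The summed level of 7 hepatocyte markers had a median of 509900 per kilobase in 129 HFD (284867 to 519248), against 387378 in 129 chow (150236 to 515782). In B6 its median was 163084 per kilobase on HFD (97547 to 525252), against 485820 on chow (466998 to 508440), so that it was lower on HFD in B6 and higher on HFD in 129. A sum follows its most abundant genes, and the median effect of the 7 was 0.37 in 129 and −0.02 in B6. For all genes tested it was 0.04 and −0.06. Of the 7 hepatocyte markers, 1 rose and 0 fell in 129, while 3 rose and 2 fell in B6. Of 10 Kupffer cell markers 6 rose and 0 fell in each strain, with median sums of 639 per kilobase in 129 HFD (441 to 1038) against 442 in 129 chow (303 to 1255), and of 1061 in B6 HFD (621 to 2940) against 692 in B6 chow (404 to 1049). Stellate cell markers (7 tested) gave 2 rises and 1 fall in 129 and 6 rises in B6, and endothelial markers (8 tested) gave the same counts. Of 3 cholangiocyte markers tested 1 rose in 129 and 2 in B6, of 3 markers of recruited macrophages 1 rose in 129 and 1 fell in B6, and of 5 red blood cell markers 1 rose in 129 and 2 in B6. Among 10 pericentral markers 3 rose and 2 fell in 129, and 5 rose and 2 fell in B6. Among 9 periportal markers 1 rose and 4 fell in 129, and 2 rose and 4 fell in B6. The part of these markers in the diet effects was not tested, and in bulk liver fewer cells of a type and less RNA per cell cannot be told apart.

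The interaction asks whether the diet effect differed between the strains, as the 129 effect minus the B6 effect. It was called for 5 of the 10 genes, 4 with the more negative diet effect in B6 (34.4% of all genes tested were called). These were Gsta1 (1.83 ± 0.57, adjusted p = 0.0117), Gsta2 (1.002 ± 0.29, adjusted p = 0.00712), Gsta3 (0.52 ± 0.16, adjusted p = 0.0125) and Gstm4 (0.58 ± 0.18, adjusted p = 0.00973). For Gstt1 the interaction was −0.86 ± 0.26 (adjusted p = 0.0105), with the rise in B6. Gstm1 (0.47 ± 0.22, adjusted p = 0.0928) and Gstm3 (0.77 ± 0.33, adjusted p = 0.0620) were not called, and for Gsta4, Gstm2 and Gstp1 the differences were 0.18 ± 0.23, 0.12 ± 0.24 and −0.29 ± 0.27. With the Mir6236 covariate the differences were 0.92 for Gsta1, 0.76 for Gsta2, 0.18 for Gsta3, 0.53 for Gstm4 and −0.04 for Gstt1, and none of these 5 was called (smallest adjusted p = 0.740), with 14 genes called in all. After removal of each library's trend with GC content and length, Gsta3 (0.40, adjusted p = 0.0616) and Gstt1 (−0.59, adjusted p = 0.0510) were not called, whereas Gstm1 (0.68) and Gstm3 (0.94) were.

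Between the strains on HFD, 5 of the 10 genes differed (4 higher in 129, as were 19.0% of all genes, and 1 lower, as were 13.3%). Gstm3 was higher in 129 by 1.17 ± 0.23 (adjusted p = 6.12e-05), Gsta2 by 0.72 ± 0.21 (adjusted p = 0.00461), Gstm1 by 0.56 ± 0.16 (adjusted p = 0.00406) and Gstm4 by 0.36 ± 0.13 (adjusted p = 0.0209). Gstm4 lost its call without B6 HFD ZT2 replicate 3 or ZT10 replicate 1 (highest adjusted p = 0.0522). Gstt1 was lower in 129 (−0.56 ± 0.19, adjusted p = 0.0162). The other 5 lay between −0.07 and 0.21 and were not called. With the Mir6236 covariate the calls of Gsta2 (0.62, adjusted p = 0.0608), Gstm4 (0.34, adjusted p = 0.0952) and Gstt1 (−0.21, adjusted p = 0.495) were lost, and Gstp1 was called as higher in 129 (0.78, adjusted p = 0.00263). Gsta4 was called as lower in 129 without the 4 libraries that stand apart (−0.25, adjusted p = 0.0343) and also without B6 HFD ZT22 replicate 3 alone. The HFD libraries of the strains overlapped for each of the 10 genes, whereas 0.957% of all genes were higher and 0.877% lower in 129 without overlap. Gstm3 in 129 HFD spanned 64.5 to 221, inside the span of 1.85 to 250 in B6 HFD.

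On chow 3 of the 10 genes differed between the strains, 1 higher in 129, as were 25.4% of all genes, and 2 lower, as were 27.5%. Gsta1 had the largest difference, lower in 129 at 5 of 6 times (−1.85 ± 0.40, adjusted p = 0.000155), with medians of 11.5 in 129 chow and 34.1 in B6 chow. Of the 18 libraries of 129 chow, 12 lay below every B6 chow library. Gsta3 was lower in 129 at all 6 times (−0.53 ± 0.12, adjusted p = 0.000169), and 13 of 18 libraries of 129 chow lay below every B6 chow library. Gstp1 was higher in 129 (0.50 ± 0.19, adjusted p = 0.0269), and the other 7 lay between −0.28 and 0.40 and were not called. The Gstp1 call was lost when any 1 of 6 libraries was left out (B6 chow ZT6 replicate 3, ZT10 replicate 1, ZT14 replicate 3 or ZT18 replicate 2, or 129 chow ZT2 replicate 1 or ZT6 replicate 3), with a lowest effect of 0.39, and after removal of the GC and length trends (0.17, adjusted p = 0.343). When the 36 chow libraries were fitted alone, Gstm3 (0.40, adjusted p = 0.0103) and Gsta4 (−0.26, adjusted p = 0.0407) were called and Gstp1 was not (adjusted p = 0.0721). Gstp1 was not called without a filter on low values either (adjusted p = 0.0503). Gstm4 was called after removal of the GC and length trends (−0.295, adjusted p = 0.0415). The chow libraries of the strains overlapped for each of the 10 genes (0.461% of all genes were higher and 0.771% lower in 129 without overlap). Without the 4 libraries that stand apart Gstp1 was not called (0.40, adjusted p = 0.0683), while Gsta4 (−0.30, adjusted p = 0.00722) and Gstt1 (0.29, adjusted p = 0.0424) were. None of the 3 was called with the Mir6236 covariate: the differences were −1.33 for Gsta1 (adjusted p = 0.122) and −0.34 for Gsta3 (adjusted p = 0.180), and that of Gstp1 turned to −0.26 (adjusted p = 0.574).

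Times of day were compared within each set by a cosine with a period of 24 h, whose amplitude is the distance from its midline to its peak on the log2 scale. In 129 chow livers 3 of the 10 genes had a rhythm, where 47.8% of all genes did. Gstm4 had an amplitude of 0.61 ± 0.14 with its peak at ZT5.8 (adjusted p = 0.00172), with means of 289, 303, 284, 179, 129 and 193 at ZT2, 6, 10, 14, 18 and 22. Gsta1 had an amplitude of 1.5 ± 0.42 with its peak at ZT6.6 (adjusted p = 0.00874), where the 3 libraries of ZT6 held 37.2, 44.98 and 32.6 and all others of the set 22.192 or less. Gstp1 peaked at ZT16.8 (0.88 ± 0.21, adjusted p = 0.00213). Its replicates held 2606, 1251 and 937 at ZT2, and 6831, 4722 and 6435 at ZT18, while at ZT6 they spread over 933, 1506 and 4967.

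The level of Mir6236 also differed between the times of that set. It was at 27.7 to 167 at ZT2, 37.2 to 663 at ZT6, 789 to 3213 at ZT10, 53.8 to 39055 at ZT14, 39055 to 61431 at ZT18 and 45004 to 61431 at ZT22. With it as a covariate none of the 3 genes was called: the amplitudes were 0.59 for Gstm4 (adjusted p = 0.0763), 0.86 for Gsta1 (adjusted p = 0.492) and 0.26 for Gstp1 (adjusted p = 0.563). Without the 4 libraries that stand apart Gsta3 was called too in 129 chow (0.26, adjusted p = 0.0204).

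In B6 HFD livers 2 of the 10 genes had a rhythm, where 4.08% of all genes did: Gsta2 (amplitude 0.93 ± 0.24, peak at ZT9.9, adjusted p = 0.0314) and Gsta4 (0.69 ± 0.18, peak at ZT9.8, adjusted p = 0.0399). Their values at ZT22 were 40.5, 10.7 and 0.71 for Gsta2 and 195, 112 and 12.4 for Gsta4, with the lowest in the library that stands apart. Without the 4 libraries that stand apart, the amplitudes were 0.43 for Gsta2 (adjusted p = 0.390) and 0.23 for Gsta4 (adjusted p = 0.554). Gsta4 was not called with the Mir6236 covariate either (0.63, adjusted p = 0.0543). No rhythm was called by limma among the 10 genes in 129 HFD livers (7.04% of all genes) or in B6 chow livers (6.16%), with 1 unadjusted p under 0.05 in each. It was Gstm4 in both, with amplitudes of 0.39 ± 0.14 peaking at ZT5.1 in 129 HFD (adjusted p = 0.209) and 0.38 ± 0.14 peaking at ZT5.5 in B6 chow (adjusted p = 0.203).

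The rhythms themselves were compared between sets as a change of the cosine and sine terms. None of the 10 genes passed in limma for diet in 129 (1.26% of all genes called, 2 members at an unadjusted p under 0.05), for diet in B6 (0.0532%, 5 members), for strain on HFD (0.0443%, 3 members) or for strain on chow (13.1%, 2 members). A rhythm called in 1 set and not in another is therefore not shown to differ. The smallest adjusted p were those of Gsta1 and Gstp1 between 129 chow and B6 chow (changes of 1.59 and 0.80 in log2, adjusted p = 0.110 and 0.112). Without the 4 libraries Gsta3 was called for that comparison (0.40, adjusted p = 0.0378).

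**Figure D3:**
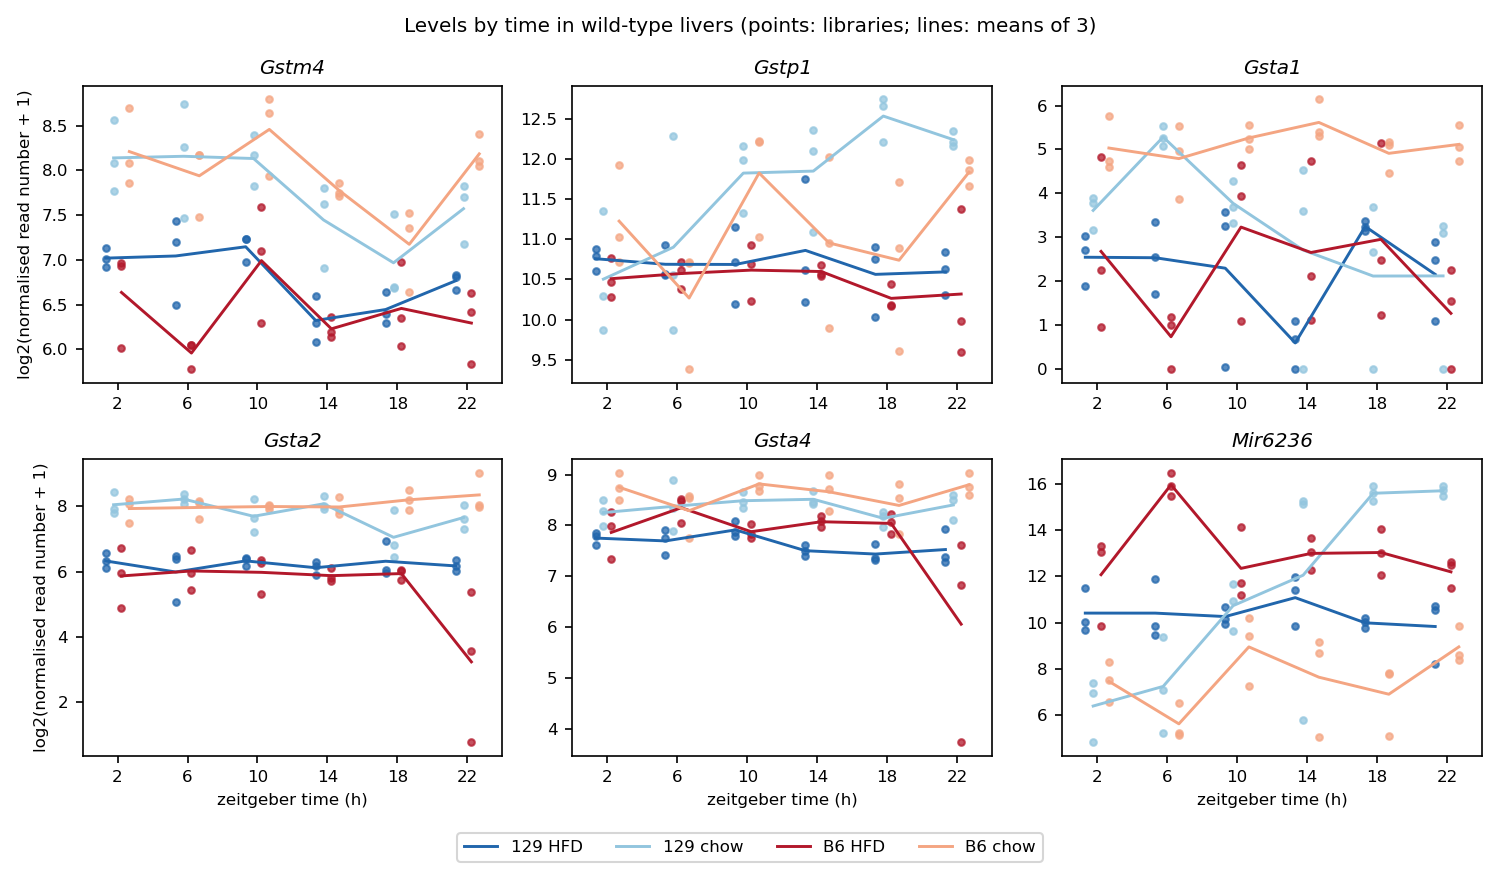
Log2(normalised read number + 1) by zeitgeber time (hours) for the 5 genes with a called rhythm in a wild-type set and for Mir6236, with 1 point per library and lines through the means of 3. The mean of Gstm4 is lowest at ZT18 in both chow sets, Gstp1 and Mir6236 are high at ZT18 and ZT22 in 129 chow, and Gsta2 and Gsta4 are low at ZT22 in B6 HFD.

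The Errg-Cre and Esrrg LKO sets come from separately normalised tables, so their levels stand side by side without a test. Gstm3 was at 66.1, 151 and 529 (lowest, median and highest of 18) in Errg-Cre livers and at 79.8, 381 and 658 in Esrrg LKO livers. Gsta2 was at 13.6, 85.8 and 159 in Errg-Cre and at 12.4, 39.6 and 108 in Esrrg LKO livers. Gstm1 was near in the sets, at 3046, 5503 and 8321 in Errg-Cre and at 3097, 4729 and 8177 in Esrrg LKO livers.

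Gsta3 was at 7606, 14654 and 20649 in Errg-Cre livers and at 6244, 8156 and 10209 in Esrrg LKO livers. Gstp1 was at 2610, 4571 and 7754 in Errg-Cre and at 917, 1098 and 1644 in Esrrg LKO livers, and it shares most of its windows with Gstp2. Gstt1 was at 665, 885 and 1623 in Errg-Cre and at 770, 1012 and 1301 in Esrrg LKO livers. Strain, genotype and table differ between these sets and cannot be told apart. Gsta4 medians were 305 in Errg-Cre and 248 in Esrrg LKO livers, those of Gstm2 192 and 186, those of Gstm4 131 and 128, and those of Gsta1 2.27 and 7.77.

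In Errg-Cre livers 2 of the 9 genes tested had a rhythm (17.9% of 11622 genes): Gsta3 (0.41 ± 0.10, peak at ZT19.1, adjusted p = 0.0233) and Gstm4 (0.45 ± 0.12, peak at ZT6.0, adjusted p = 0.0343). Gsta3 was at 7606 to 8163 in the 3 libraries of ZT6 and at 14397 to 20649 in those of ZT22. It was not called when any library of ZT6 was left out, with adjusted p up to 0.0597. The Gstm4 call was lost without any of 6 libraries (Errg-Cre ZT2 replicate 3, ZT6 replicate 1 or 3, ZT10 replicate 2, ZT18 replicate 1 or 3), with adjusted p up to 0.0732, and with the Mir6236 covariate (0.45, adjusted p = 0.0599). In Esrrg LKO livers 1 of 10 had a rhythm (6.09% of 11946 genes): Gstm4, with an amplitude of 0.37 ± 0.08 and its peak at ZT1.7 (adjusted p = 0.0246), with means of 167 at ZT2 and 101 at ZT14. That call was lost without Esrrg LKO ZT2 replicate 1, ZT2 replicate 3 or ZT14 replicate 1 (adjusted p up to 0.0739).

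**Figure D4:**
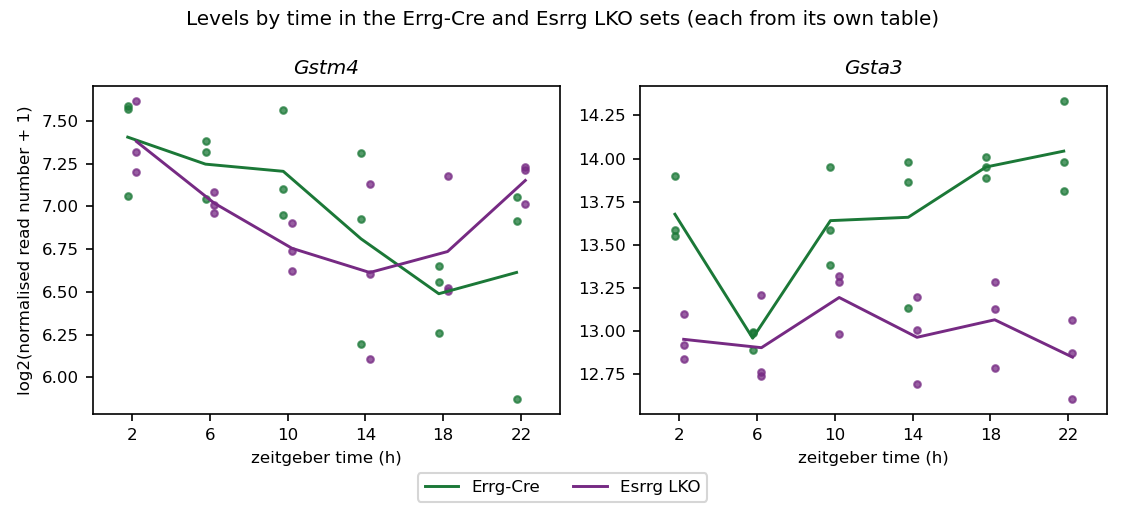
Log2(normalised read number + 1) by zeitgeber time (hours) in the Errg-Cre and Esrrg LKO sets, each from its own table, with 1 point per library and lines through the means of 3. Gstm4 has its highest mean at ZT2 in both sets, and Gsta3 its lowest at ZT6 in Errg-Cre livers.

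Other genes of the pathway give the setting of these changes. The counts follow the same diet tests, in which 10.9% of all genes rose and 7.45% fell in 129, and 27.5% rose and 32.7% fell in B6. Calls of the genes in these lists were not read without the 4 libraries that stand apart or with the Mir6236 covariate. With that covariate 564 genes in all were called for diet in B6. Of 13 other glutathione transferases tested, 3 rose and 2 fell in 129, and 5 rose and 3 fell in B6, with list medians of −0.07 and 0.23 beside 0.04 and −0.06 for all genes. Gstp3, a pi-class relative of Gstp1, rose by 0.72 ± 0.22 in 129 (adjusted p = 0.0127) and by 1.30 ± 0.22 in B6 (adjusted p = 1.29e-06). Gstt2, of the theta class like Gstt1, was at −0.18 ± 0.18 in 129 (adjusted p = 0.552) and rose by 1.14 ± 0.18 in B6 (adjusted p = 4.78e-07). The microsomal Mgst3 was at 0.47 ± 0.21 in 129 (adjusted p = 0.108) and rose by 1.17 ± 0.21 in B6 (adjusted p = 3.59e-06).

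Of 13 genes of glutathione synthesis, recycling and peroxidases, 3 fell in 129, and 5 rose and 5 fell in B6. The peroxidases Gpx1 and Gpx4 rose in B6, by 1.09 ± 0.13 (adjusted p = 6.03e-10) and 1.02 ± 0.14 (adjusted p = 4.99e-08), and were at 0.25 and 0.11 in 129, which were not called. Oplah, which returns oxoproline to glutamate, was at 0.22 in 129 and rose by 1.71 ± 0.34 in B6 (adjusted p = 3.28e-05). Of 9 genes of conjugate export and mercapturate steps, 1 rose and 3 fell in 129, and 3 rose and 2 fell in B6. The exporter gene Abcc4 fell in both strains, by 0.69 ± 0.17 in 129 (adjusted p = 0.00181) and by 1.72 ± 0.17 in B6 (adjusted p = 1.90e-12). Abcc1, another exporter gene, rose by 0.89 ± 0.26 in 129 (adjusted p = 0.00947) and by 0.80 ± 0.26 in B6 (adjusted p = 0.00597), and Acy1, which deacylates mercapturates, was at 0.20 in 129 and rose by 1.30 ± 0.29 in B6 (adjusted p = 0.000117).

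Among targets of the known inducers outside the family, falls outnumbered rises in both strains. Of 12 NRF2 targets 1 rose and 6 fell in 129, and 1 rose and 9 fell in B6, with medians of −0.23 and −0.54. Me1, the malic enzyme that makes NADPH, fell by 1.001 ± 0.16 in 129 (adjusted p = 4.52e-06) and by 0.84 ± 0.16 in B6 (adjusted p = 1.30e-05), and Ugdh, which makes UDP-glucuronic acid, by 0.34 ± 0.10 in 129 (adjusted p = 0.00739) and by 1.23 ± 0.10 in B6 (adjusted p = 1.35e-15). Of 13 CAR and PXR targets 0 rose and 8 fell in 129, and 1 rose and 10 fell in B6, with medians of −0.86 and −1.46. The cytochrome P450 genes Cyp2c55, Cyp2b10 and Cyp3a11 had effects of −4.39 ± 0.22, −3.47 ± 0.29 and −4.95 ± 0.37 in 129, and of −5.10 ± 0.22, −5.08 ± 0.29 and −4.97 ± 0.37 in B6. These lists were chosen with earlier results of these data known, so their counts are descriptions.

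Among the transcripts of the regulators themselves rises outnumbered falls in B6, while few moved in 129. Of 13 regulator genes 1 rose in 129, where 10.9% of all genes rose. In B6 7 rose and 2 fell, where 27.5% of all genes rose and 32.7% fell. The list medians were 0.04 in 129 and 0.58 in B6, beside 0.04 and −0.06 for all genes. Nr1i3, the gene of CAR, rose by 0.73 ± 0.14 in 129 (adjusted p = 0.000134) and by 1.38 ± 0.14 in B6 (adjusted p = 1.71e-11). Nr1i2, the gene of PXR, was at 0.23 ± 0.12 in 129 (adjusted p = 0.198) and rose by 0.58 ± 0.12 in B6 (adjusted p = 6.64e-05). Nfe2l2, the gene of NRF2, was at 0.21 ± 0.09 in 129 (adjusted p = 0.0942) and at −0.04 ± 0.09 in B6 (adjusted p = 0.753), while Keap1, its inhibitor, was not called in 129 (adjusted p = 0.986) and rose by 0.72 ± 0.09 in B6 (adjusted p = 3.14e-09). In B6 there were also rises of Mafk (1.12) and Mafg (0.46), which pair with NRF2, and Rxra (1.003), the partner of CAR and PXR, and falls of Bach1 (−0.32), which competes with NRF2, and Arnt (−0.23), the partner of the aryl hydrocarbon receptor.

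Gstm3, with the largest diet effect, and Gsta1, with the largest strain effect on chow, were each set beside all other genes by the Pearson correlation of their log2 means over the 24 wild-type groups of set and time. The values are descriptions, since the groups share diets, strains and libraries. Closest to Gstm3 were Cyp2c29 (0.95), Ces2a (0.94), Cyp3a59 (0.94), Etnppl (0.93) and Ugt2b1 (0.91). Closest to Gsta1 were Slc25a17 (0.88), Arpp19 (0.86), Sms (0.85), Prdx1 (0.85) and Psma6 (0.85).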

How the data were processed

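RNA-seq of 108 mouse liver libraries was analysed from 3 deposited tables, each normalised on its own. The signal deposited by the authors is the read number of each RefSeq transcript after quantile normalisation. The submitters' processing notes name STAR, HOMER and mm10, without versions. In the table with the Errg-Cre libraries 18 columns matched no label and were not used. Values were taken as log2(value + 1), for the transcript with the highest mean per symbol and a mean of at least 10, and limma 3.58.1 (R 4.3.3) gave the fits (moderated tests with a mean-variance trend, Benjamini-Hochberg adjustment over all genes of the table, threshold 0.05). Wild-type libraries shared 1 fit of 24 group means, and contrasts were averaged over the 6 times. Rhythms used a cosine of 24 h with a moderated F test. The procedure was tested on simulated data.

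The members and lists were chosen with earlier results of these data known. Named were all members, the regulators called in a diet comparison, up to 3 called genes with the largest change of every other list, and the 5 genes most like the members with the largest diet and chow strain effects. For these 5 the members and the other glutathione transferases listed were left out. Nfe2l2, Mir6236, Saa1 and Lcn2 were named outside this rule, after their values were seen. A called regulator is not reported here. The alternatives were other pseudocounts, no filter, another scaling, summed transcripts, GC and length trends, robust variances, library weights, Mir6236 as a covariate, a replicate block, subsets of libraries and any difference between times.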

Additional observations from a re-analysis of the deposited data

Results flagged for a closer look

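The diet effect differed between the strains in the test of the difference itself for 5 of the 10 genes, where 34.4% of all genes tested did (129 effect minus B6 effect, log2, limma). The difference was 1.827 for Gsta1 (adjusted p = 0.0117), with diet effects of −1.04 in 129, which was not called, and −2.87 in B6. It was 1.002 for Gsta2 (adjusted p = 0.00712), with effects of −1.58 in 129 and −2.58 in B6, lower at all 6 times in both strains. The gap between the strains was uneven over the day. At ZT22 the Gsta2 diet effects were −1.48 in 129 and −5.11 in B6, and at ZT6 they were −2.23 and −1.95. For Gsta3 the difference was 0.517 (adjusted p = 0.0125), with effects of 0.22 in 129, which was not called, and −0.30 in B6. At ZT22 the Gsta3 effects were 0.28 in 129 and −1.32 in B6, and at ZT6 −0.29 and −0.28. B6 HFD at ZT22 includes the replicate 3 that stands apart, and both calls held when any 1 library was left out. For Gstm4 the difference was 0.584 (adjusted p = 0.00973), with effects of −0.95 in 129 and −1.53 in B6. Gstt1 alone differed the other way, by −0.860 (adjusted p = 0.0105), with effects of 0.27 in 129, which was not called, and 1.13 in B6. With the Mir6236 covariate none of the 5 was called, and the differences were 0.92 for Gsta1, 0.76 for Gsta2, 0.18 for Gsta3, 0.53 for Gstm4 and −0.04 for Gstt1 (smallest adjusted p = 0.740).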

How the results depend on the processing

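Other pseudocounts, robust variances, summed transcripts and median-of-ratios scaling left all counts of called members unchanged or within 1.5 times. Without a filter on low values, rhythm calls were 0 in B6 HFD (322 of all genes), 0 in Errg-Cre (1201) and 0 in Esrrg LKO (555). With library weights, whose fit gave a convergence warning, calls were 10 for diet in 129 (5030 of all 11287 genes), 6 for strain on chow (7200), and for rhythm 3 in 129 HFD (3609), 5 in 129 chow (6976), 0 in B6 HFD (858) and 2 in B6 chow (3395). Changes of rhythm were then called for 3 members with diet in 129 (4252 of all genes) and for 3 with strain on chow (4220).

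With the Mir6236 covariate, calls were 6 for diet in B6 (564 of all genes), 3 for strain on HFD (3355), 0 for strain on chow (1445), 0 for the interaction (14), and for rhythm 0 in 129 chow (1662), 1 in B6 HFD (533) and 1 in Errg-Cre (908). The sign of Gstp1 for strain on chow turned, to −0.255. Any difference between the 6 times was called for 4 members in B6 HFD (785 of all genes), 2 in B6 chow (2916), 1 in Errg-Cre (1319) and 0 in Esrrg LKO (433). The rhythm count in B6 HFD was 1 without the 3 libraries with most genes under 1, and 0 without those and B6 HFD ZT22 replicate 3, an omission chosen after seeing the data, under which 1 rhythm change with strain on chow was called. The cause of these changes was not tested.

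Leaving out 1 library at a time gave 6 to 7 calls for diet in 129, 9 to 10 for diet in B6, 4 to 6 for strain on HFD, 2 to 5 for strain on chow and 5 to 7 for the interaction. Rhythm calls ranged from 3 to 4 in 129 chow, 0 to 3 in B6 HFD, 0 to 2 in Errg-Cre and 0 to 1 in Esrrg LKO, and rhythm changes from 0 to 1 with diet in 129 and from 0 to 1 with strain on chow. Strain on chow had 5 calls without B6 HFD ZT22 replicate 3. The rhythm of Gsta2 in B6 HFD was lost without ZT6 replicate 2, ZT10 replicate 3, ZT22 replicate 2 or ZT22 replicate 3, and that of Gsta4 without any of 7 libraries. The interaction of Gstm3 was called without any of 7 libraries and that of Gstm1 without either of 2.

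A replicate block changed the call of none of 164 results, with 10 calls for diet in B6 as without it. Same-numbered wild-type libraries did not deviate together (median correlation 0.00494, against −0.00278 for different numbers), so the numbers were not taken as pairs. Depth is unknown, which limits Gsta1 most, since it was listed at 0 in some libraries.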
